A study of Mus musculus with 8 samples.

Results

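The insulin-like growth factor (Igf) axis was described here through 9 genes, picked out by gene name: the secreted Igf-binding proteins Igfbp2, Igfbp3, Igfbp4 and Igfbp5, the ligand Igf1, its receptor Igf1r, and the RNA-binding proteins Igf2bp1, Igf2bp2 and Igf2bp3. A probe set was given to 8 of the 9 in the arrays' annotation, which names 18336 genes in all by a probe set of their own. Igf2bp2 had none and is not analysed here. A probe set is a group of short probes for 1 transcript, and every probe set was kept apart. The U74Av2 array held 11 of them and the MOE430v2 array held 30.

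RNA came from pools of mouse embryos at embryonic day 7.5, when the germ layers and the organizer (node) form. The Foxa2 null pools held 53 and 48 embryos that had been grown from Foxa2 null embryonic stem cells by tetraploid complementation, in which tetraploid wild-type host cells supply the extra-embryonic tissue, and host visceral endoderm stayed on the embryos. The wild-type pools held 53 and 50 embryos of the ICR strain. In all pools the extra-embryonic region had been removed, and the pools are taken as mixed in sex. The null embryos proper have the sex of the stem cells they were grown from. Whether both sexes were present among them is therefore uncertain here. The labels name ICR for the MOE430v2 arrays of null pools as well, which leaves the background strain of these embryos uncertain here. The null embryos thus differed from wild-type in their origin as well as in Foxa2, a forkhead factor needed for the node and the endoderm, and the part of each cannot be told apart. All 4 extracts were hybridised to both platforms, 1 array each (8 arrays), so the second platform re-measured the same pools and n was 2 pools per genotype throughout. By the study's staging, wild-type pool 2 was the youngest.

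Igf1 and Igf2 are secreted growth factors that act through the receptor tyrosine kinase Igf1r. Outside the cell most of the ligand is held by Igf-binding proteins, which can keep it from the receptor or carry it to its site of action until proteases cleave them. The Igf2bp proteins sit inside the cell, where they bind messenger RNAs, that of Igf2 among them, and affect their stability and translation.

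Igfbp2 and Igfbp5 are neighbours on chromosome 1, and their promoters are shown with that of Igfbp4 because the binding proteins' largest ratios were measured at probe sets of Igfbp5 and Igfbp4, while Igfbp2 lies beside Igfbp5. RefSeq promoter windows of assembly GRCm38.p6, each of 300 bases and ending 50 bases after the start site, were matched by symbol for 8 of the 9 genes, which gave 9 windows. They were searched on both strands for the forkhead letters TGTTTAC or TATTTAC or TGTTTGC or TATTTGC, for the shorter TGTTTA or TATTTA or TGTTTG, and for TATAAA. The 7-letter forms were in 13.5% of all 32851 windows and in 0 of the 9. The shorter forms, each of which is the start of 1 of the longer ones, were in 36.5% of all windows and in 2 of the 9, and TATAAA was in 13.6% of all and in 1 of the 9. Capitals mark TATTTA and TGTTTG in the Igfbp5 window (chr1:72874816-72875115, minus strand), TGTTTA in the window of the second Igfbp2 start (chr1:72825137-72825436, plus strand) and TATAAA in the Igfbp4 window (chr11:99040994-99041293, plus strand). The capitals are matches of letters only.
Igfbp5: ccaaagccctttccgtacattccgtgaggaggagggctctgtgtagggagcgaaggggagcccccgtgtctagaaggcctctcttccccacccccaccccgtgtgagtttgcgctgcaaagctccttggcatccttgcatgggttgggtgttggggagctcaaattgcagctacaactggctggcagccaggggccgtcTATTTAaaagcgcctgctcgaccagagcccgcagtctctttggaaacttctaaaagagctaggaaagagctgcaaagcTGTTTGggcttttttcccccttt
Igfbp2: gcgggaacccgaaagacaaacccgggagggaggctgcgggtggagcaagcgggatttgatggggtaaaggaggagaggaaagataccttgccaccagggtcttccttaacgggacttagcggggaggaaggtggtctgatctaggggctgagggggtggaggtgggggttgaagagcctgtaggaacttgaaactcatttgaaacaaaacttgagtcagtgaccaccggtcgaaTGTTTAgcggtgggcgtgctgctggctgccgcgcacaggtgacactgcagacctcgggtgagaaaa
Igfbp4: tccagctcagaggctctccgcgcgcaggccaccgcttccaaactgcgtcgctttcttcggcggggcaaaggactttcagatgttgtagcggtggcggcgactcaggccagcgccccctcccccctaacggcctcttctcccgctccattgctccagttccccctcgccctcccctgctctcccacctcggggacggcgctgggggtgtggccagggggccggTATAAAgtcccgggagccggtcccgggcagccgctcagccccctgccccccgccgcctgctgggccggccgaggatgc

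Across the tested probe sets of the axis the largest difference in size between the genotypes was in Igfbp5, the binding protein that is also found bound to extracellular matrix. Its MOE430v2 probe set 1452114_s_at gave log2 signals of 9.14 and 8.22 in the Foxa2 null pools, against 10.61 and 9.55 in the wild-type pools. Both null pools lay below both wild-type pools, and in each genotype pool 1 lay above pool 2. The log2 ratio, Foxa2 null over wild-type, was -1.40 (95% confidence interval -2.24 to -0.56, standard error 0.37), or 0.379 of the wild-type level. It did not pass after adjustment over all probe sets (adjusted p = 0.177, limma with Benjamini-Hochberg).

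On U74Av2 the probe set 100566_at, which the annotation gives to Igfbp5 and Tmem119 together and which the study listed as Igfbp5 from these same samples, had 7.22 and 6.88 in the Foxa2 null pools, against 8.76 and 7.65 in the wild-type pools. The ratio was -1.15 (adjusted p = 0.243 by limma, standard error 0.33), with no overlap of the groups and again with pool 1 above pool 2 in each genotype. As the same extracts were measured, these values are a second reading and not a second experiment. By in situ hybridization the study saw Igfbp5 RNA widely in the embryo, with a strong domain in the node. The other Igfbp5 probe set on MOE430v2, 1422313_a_at, had 8.48 and 8.83 in the Foxa2 null pools and 8.55 and 8.82 in the wild-type pools, a ratio of -0.03 (95% confidence interval -0.56 to 0.49). The 2 Igfbp5 probe sets of 1 array thus did not give the same picture, and the interval of the second does not reach the ratio of the first. Igfbp5 ratios also moved with single pools. For 1452114_s_at, leaving out Foxa2 null pool 1 gave -1.86 and leaving out null pool 2 gave -0.94, against -0.87 and -1.94 when wild-type pool 1 or pool 2 was left out. Without Foxa2 null pool 1 the adjusted p was 0.0112 by limma, a fit in which the spread between null pools is not measured. For 100566_at it was -0.60 when wild-type pool 1 was left out and -1.70 when pool 2 was. In that last fit, where 1 wild-type pool stands for its genotype and its spread is not measured, the adjusted p was 0.0137 by limma.

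Igfbp4, a binding protein that mainly holds Igf back from its receptor, was slightly lower in the Foxa2 null pools at most of its MOE430v2 probe sets. At 1423756_s_at the log2 signal was 12.40 and 12.35 in the Foxa2 null pools, against 12.55 and 12.80 in the wild-type pools. The ratio was -0.30 (adjusted p = 0.317 by limma, standard error 0.11). At 1437405_a_at it was 12.85 and 12.84 in the Foxa2 null pools, against 13.05 and 13.14 in the wild-type pools, a ratio of -0.25 (adjusted p = 0.297 by limma). The genotypes did not overlap at either probe set. The 2 null pools lay close together, and wild-type pool 2 lay farthest from them. At 1423756_s_at leaving out wild-type pool 2 gave -0.18, and leaving out pool 1 gave -0.43. The probe sets 1423757_x_at and 1437406_x_at had ratios of -0.31 and -0.16, also without overlap, and 1421992_a_at had -0.18 with null pool 2 above wild-type pool 1.

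The remaining Igfbp4 probe set, 1421991_a_at, had the widest spread, with 7.38 and 6.67 in the Foxa2 null pools, against 7.49 and 9.19 in the wild-type pools. Its ratio of -1.32 (adjusted p = 0.364 by limma, standard error 0.53) rested on wild-type pool 2, without which it was -0.47, and without wild-type pool 1 it was -2.17. On U74Av2, 101571_g_at had 8.40 and 8.27 in the Foxa2 null pools and 8.31 and 8.65 in the wild-type pools, a ratio of -0.15, and 94222_at had a ratio of 0.10. Both had overlapping groups. Another, 101570_at, was among the probe sets of lowest signal that were not tested.

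**Figure D1:**
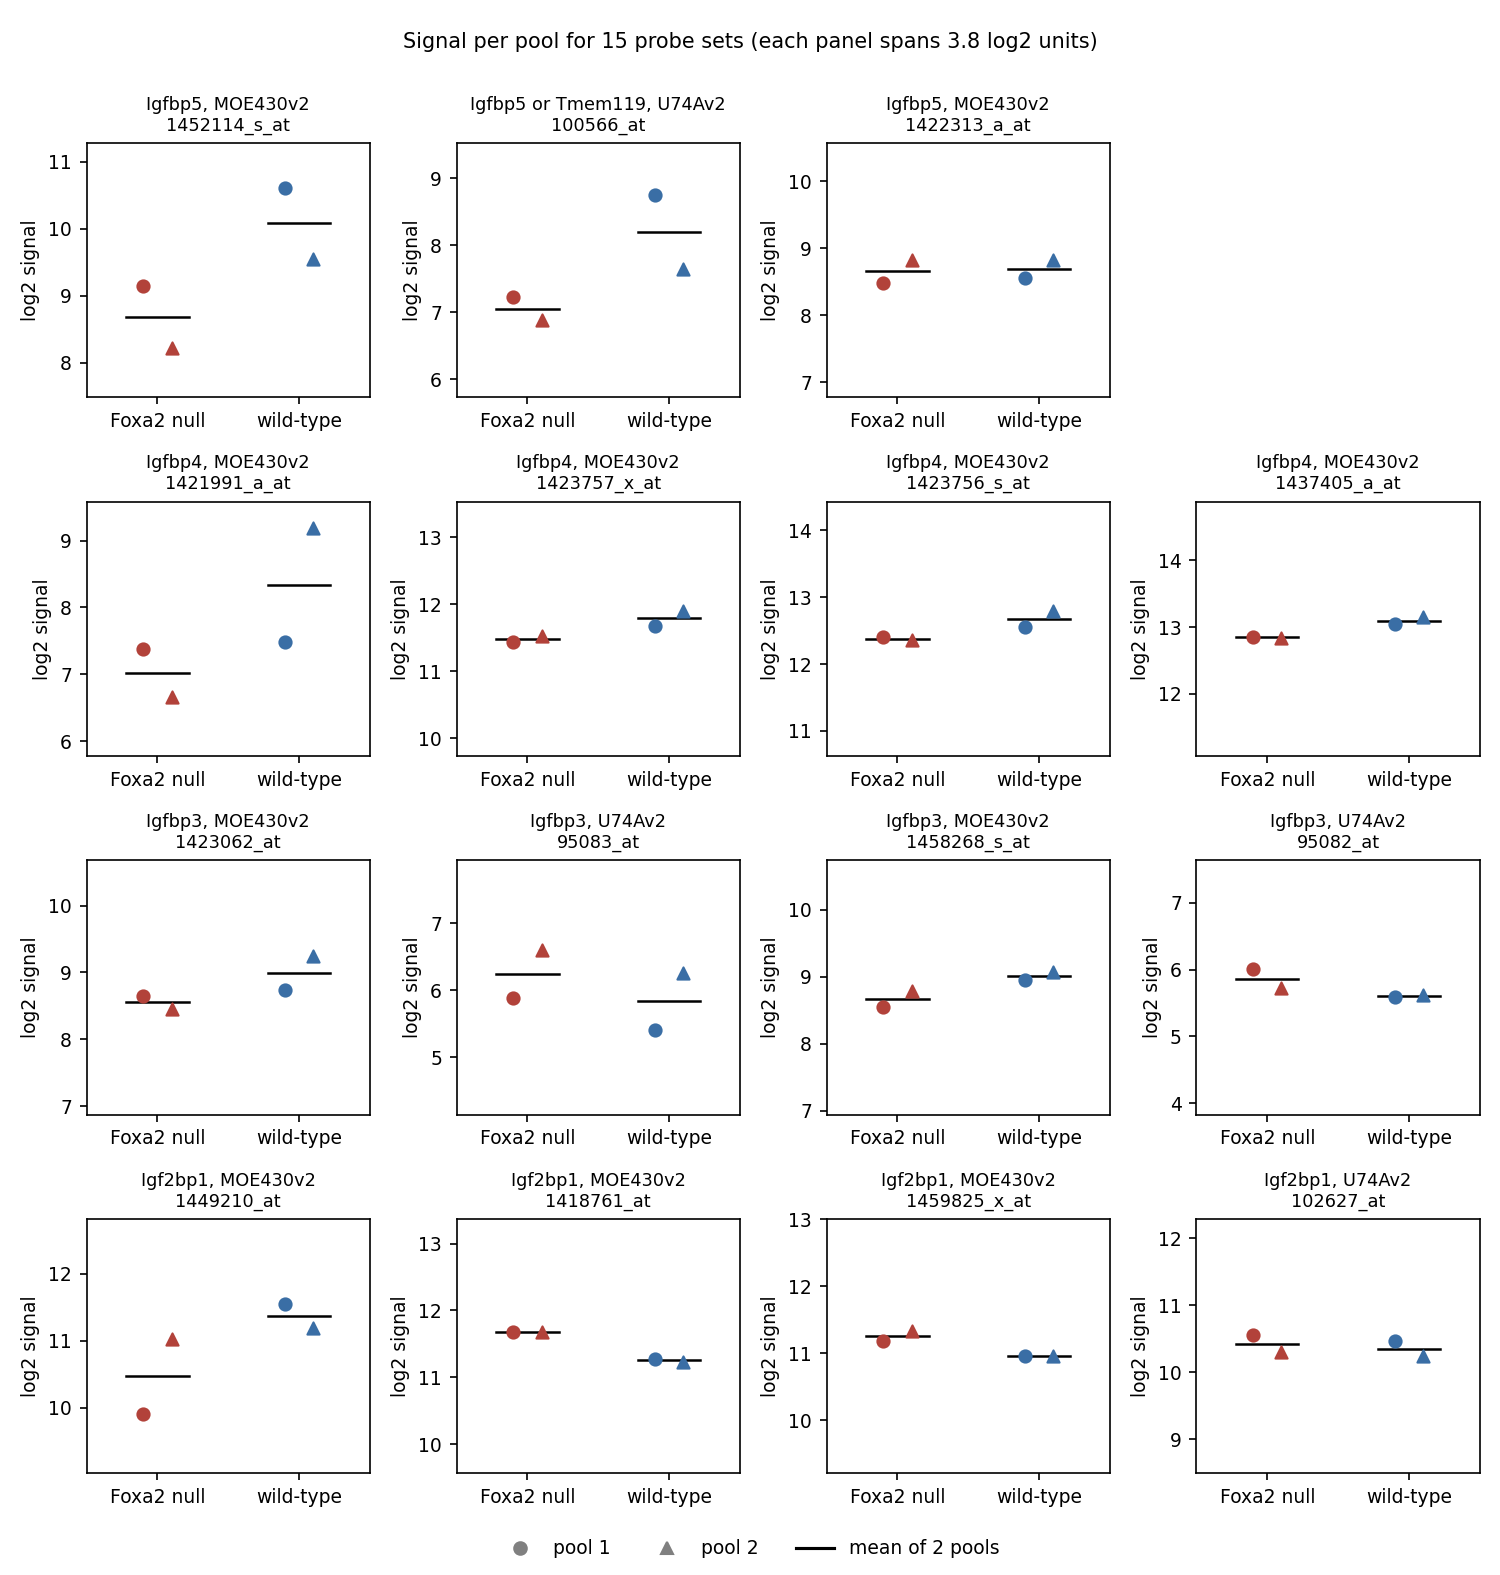
Log2 signal (vertical axis) in each pool for 15 probe sets of Igfbp5, Igfbp4, Igfbp3 and Igf2bp1. For each gene up to 4 tested probe sets are shown, those with the largest ratio in size. Those with smaller ratios are left out, among them 94222_at of Igfbp4 (0.10) and 1455223_at of Igf2bp1 (0.00). Foxa2 null pools are left of wild-type pools, with a bar at the mean of 2 pools, circles for pool 1 and triangles for pool 2. The Igfbp5 probe sets 1452114_s_at and 100566_at and the first Igfbp4 panel show null pools below wild-type pools and a spread within a genotype of up to 1.70 log2 units, whereas 1418761_at of Igf2bp1 shows tight pools with the null higher by 0.42.

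Igfbp3, the main carrier of Igf in blood, gave ratios of opposite sign on the 2 platforms. On MOE430v2, 1423062_at had 8.65 and 8.46 in the Foxa2 null pools, against 8.73 and 9.25 in the wild-type pools, and 1458268_s_at had 8.55 and 8.79 in the Foxa2 null pools, against 8.95 and 9.07 in the wild-type pools. Both were lower in the null without overlap, with ratios of -0.44 (95% confidence interval -0.98 to 0.10) and -0.34 (-0.81 to 0.13). The ratio at 1423062_at depended on the wild-type pools, being -0.18 without pool 2 and -0.70 without pool 1, and that at 1458268_s_at was -0.21 without Foxa2 null pool 1. On U74Av2, 95082_at had 6.0 and 5.72 in the Foxa2 null pools, against 5.59 and 5.62 in the wild-type pools. Here the null was higher without overlap, by 0.26 (-0.35 to 0.87), and 95083_at had a ratio of 0.42 with overlapping groups. All 4 intervals include 0, and none of these probe sets passed (lowest adjusted p = 0.518 by limma). The study took Igfbp3 from U74Av2 genes reduced by less than its fold threshold and saw it in the endoderm. Both U74Av2 ratios here were above 0.

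Igfbp2, a binding protein widely made in fetal tissues, showed no difference beyond the spread of the pools. Its MOE430v2 probe set 1454159_a_at had 12.95 and 13.09 in the Foxa2 null pools and 12.74 and 13.01 in the wild-type pools, a ratio of 0.14 (95% confidence interval -0.11 to 0.39). On U74Av2, 98627_at had 10.23 and 10.22 in the Foxa2 null pools and 10.14 and 10.34 in the wild-type pools, a ratio of -0.01 (-0.32 to 0.29). Both intervals lie above the ratio of -1.40 measured at 1452114_s_at of its neighbour Igfbp5, but the ratio of -0.03 at its other probe set 1422313_a_at lies within both, and no difference between the genes was tested. Igfbp2 is among the brighter genes of the arrays, its probe sets lying above 98.4% and 97.1% of all probe sets in mean signal.

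The ligand Igf1 was dim at 3 of its 6 probe sets. On MOE430v2 1419519_at and 1434413_at were among the probe sets left out for low signal, and so was 95546_g_at on U74Av2. The remaining 3 were tested, of which 95545_at on U74Av2 lay above 75.9% of that array's probe sets in mean signal. On MOE430v2, 1437401_at had 6.56 and 6.49 in the Foxa2 null pools, against 6.11 and 6.33 in the wild-type pools (ratio 0.31, 95% confidence interval -0.88 to 1.49). The intervals of 1452014_a_at (ratio -0.33, -1.92 to 1.25) and of 95545_at (ratio -0.26, -0.80 to 0.28) also include 0. The first and the second of these intervals are wide enough to hold a difference of 1 log2 unit.

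Igf1r, the receptor for both ligands, had 5 probe sets on MOE430v2 with ratios between -0.28 and 0.19, none without overlap of the groups. At 1426565_at it had 9.78 and 9.68 in the Foxa2 null pools and 9.78 and 9.70 in the wild-type pools, a ratio of -0.02 (95% confidence interval -0.37 to 0.34). The lowest ratio was at 1452982_at, with 10.75 and 10.47 in the Foxa2 null pools and 11.06 and 10.71 in the wild-type pools. On U74Av2, 102224_at had a ratio of 0.02 (-0.40 to 0.45).

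Igf2bp1 had probe sets that went opposite ways on 1 array. At 1418761_at the log2 signal was 11.68 and 11.67 in the Foxa2 null pools, against 11.28 and 11.23 in the wild-type pools. The pools of each genotype nearly coincided, and the ratio was 0.42 (standard error 0.11, 95% confidence interval 0.18 to 0.66, adjusted p = 0.156 by limma), the smallest adjusted p of the axis. At 1459825_x_at it was 11.18 and 11.33 in the Foxa2 null pools, against 10.96 and 10.96 in the wild-type pools, a ratio of 0.29 (adjusted p = 0.373 by limma). At 1449210_at, by contrast, it was 9.91 and 11.03 in the Foxa2 null pools, against 11.55 and 11.20 in the wild-type pools, a ratio of -0.90 (adjusted p = 0.272 by limma, standard error 0.30). That ratio came mainly from Foxa2 null pool 1. Without null pool 1 it was -0.34, and without null pool 2 it was -1.45 with an adjusted p of 0.00478 by limma, a fit in which null pool 1 stands alone for its genotype. The fourth probe set, 1455223_at, had a ratio of 0.00 (-0.22 to 0.22), and 102627_at on U74Av2 had 10.56 and 10.29 in the Foxa2 null pools and 10.46 and 10.23 in the wild-type pools, a ratio of 0.08. No direction for the gene as a whole can be read from these values.

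Igf2bp3, measured on MOE430v2 only, had 6 probe sets with ratios between -0.31 and 0.22. The highest was at 1422610_s_at, with 12.28 and 12.07 in the Foxa2 null pools, against 12.00 and 11.90 in the wild-type pools (adjusted p = 0.466 by limma). The lowest was at 1450687_at, with 9.70 and 10.30 in the Foxa2 null pools and 10.09 and 10.52 in the wild-type pools, where the groups overlapped. At 1433731_at the 4 pools lay between 11.25 and 11.28, a ratio of 0.03.

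**Figure D2:**
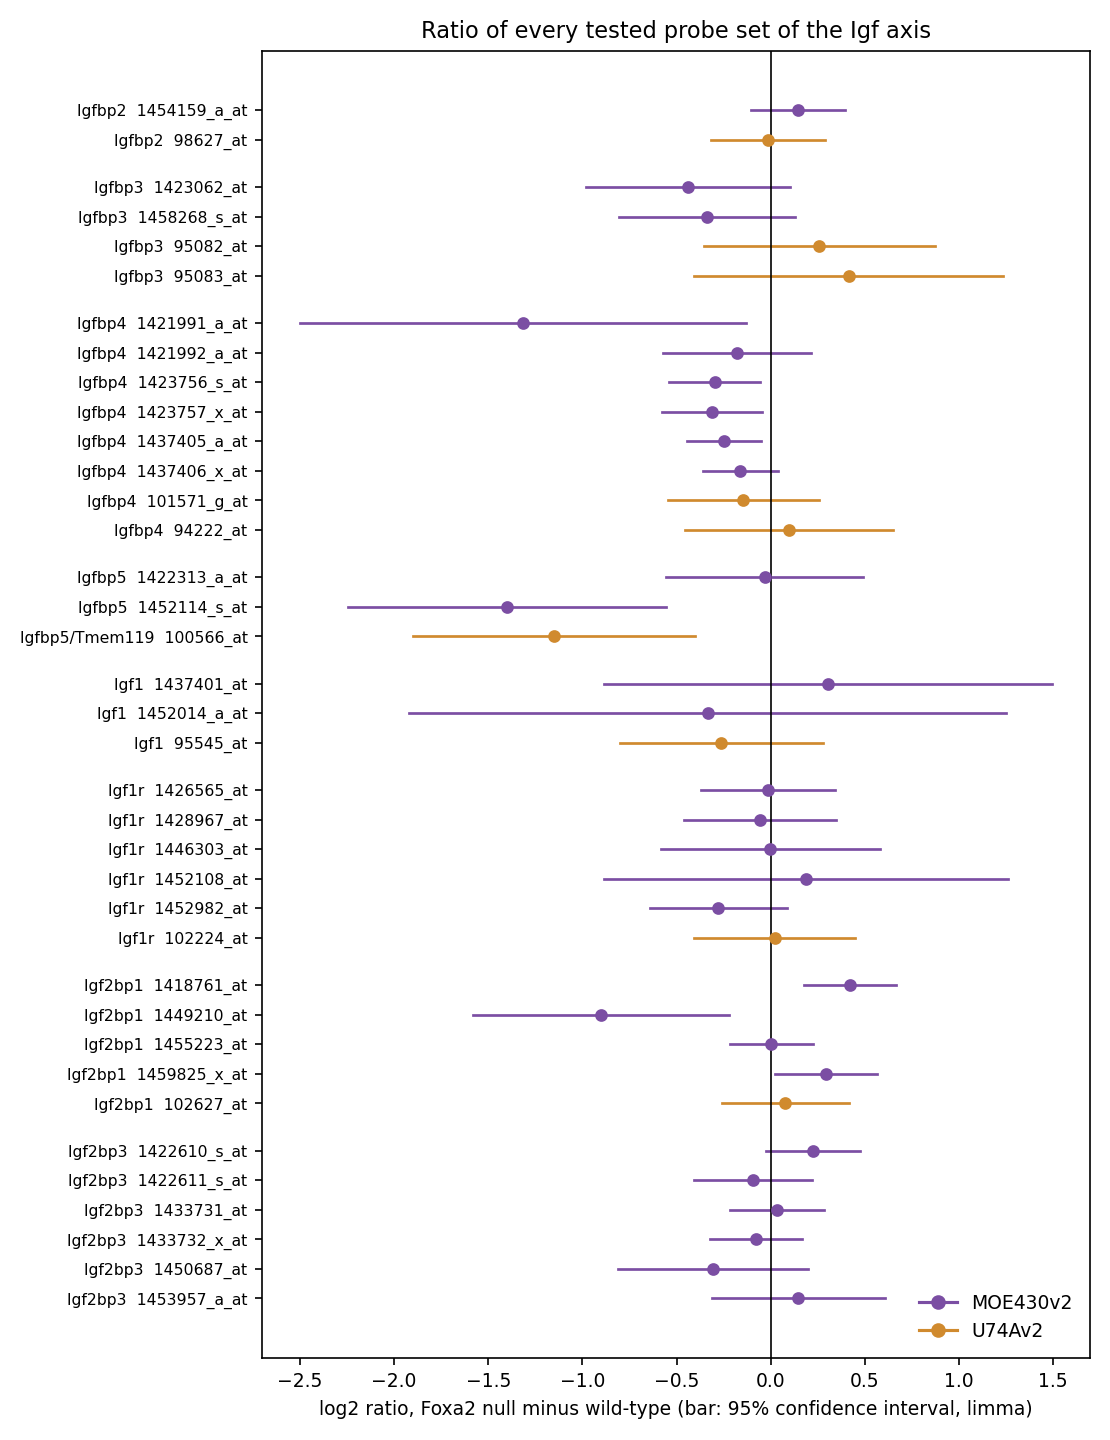
Log2 ratio, Foxa2 null over wild-type (horizontal axis) of every tested probe set of the axis, as a point with its 95% confidence interval from limma, in purple for MOE430v2 and in orange for U74Av2. The intervals of 1452114_s_at and 100566_at (Igfbp5), 4 probe sets of Igfbp4 and 3 of Igf2bp1 leave out 0, with those of Igf2bp1 on both sides of it.

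Counted over the axis, 0 of 28 tested MOE430v2 probe sets passed at an adjusted p under 0.05, where 0.244% of all 31526 tested were lower and 0.19% higher. At an unadjusted p under 0.05, 6 were lower and 2 higher, beside 6.07% lower and 6.03% higher of all tested. With wild-type pool 2 left out these were 3 and 2, and without the intensity trend of the fit 0 and 0. In 10 both Foxa2 null pools lay below both wild-type pools and in 5 above, beside 21.8% and 21.5% of all tested. The median ratio of the 28 was -0.09, and that of all probe sets was -0.00. On U74Av2, 0 of 8 tested probe sets of a single gene passed, where 0.173% of all 8695 were lower and 0.104% higher, and 0 reached an unadjusted p under 0.05, beside 5.01% lower and 5.01% higher of all. Of the 8, 0 lay below wild-type without overlap and 1 above, beside 21.4% and 18.6% of all, and the median ratio was 0.05 against -0.02 for all. The 11 probe sets of the secreted binding proteins on MOE430v2 had a median of -0.30, with 10 below 0, 8 of them without overlap and 5 at an unadjusted p under 0.05. Of all tested on that array, 50.1% were below 0, 21.8% were lower without overlap and 6.07% were lower at that p. On U74Av2 the 5 tested had a median of 0.10, with 2 below 0, beside 52.4% of all. Several of these probe sets measure the same gene, 6 of the 11 being those of Igfbp4, so they are not independent counts.

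**Figure D3:**
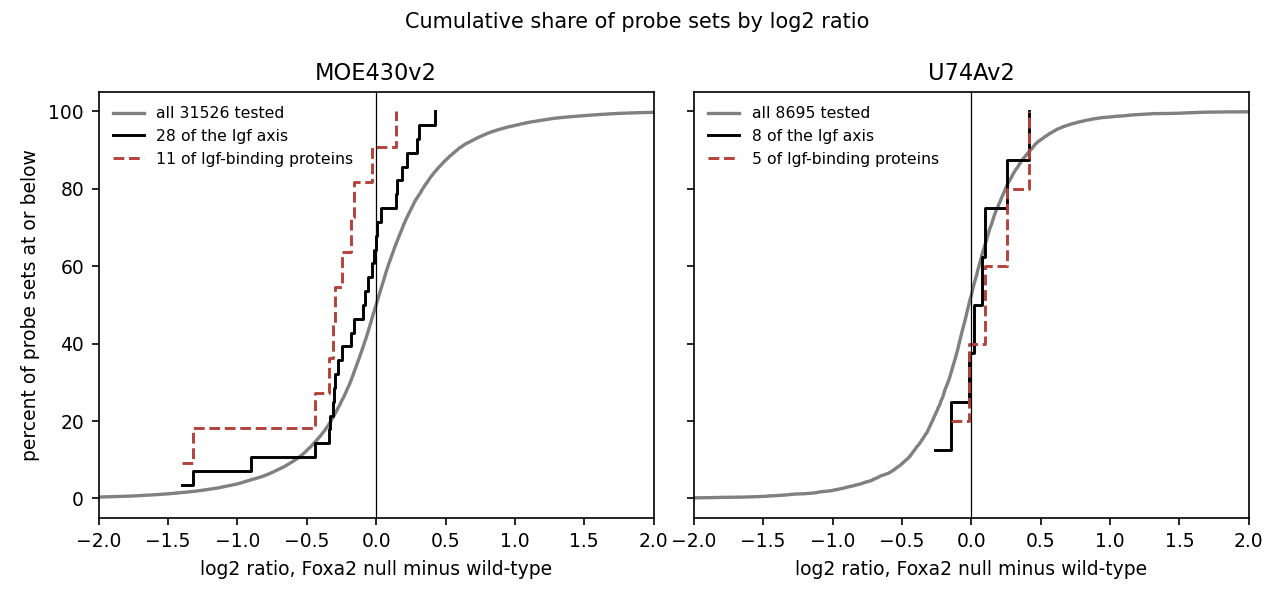
Share of probe sets (vertical axis, percent) at or below each log2 ratio, Foxa2 null over wild-type (horizontal axis), for all tested probe sets, for those of the Igf axis and for those of its secreted binding proteins. On MOE430v2 the binding proteins lie left of all probe sets with a median of -0.30, and on U74Av2 their median is 0.10.

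With the 2 arrays of an extract averaged for each gene measured on both, 6 genes of the axis could be fitted and 0 passed (unadjusted p under 0.05: 0), where of all 5933 genes 1.06% were lower and 1.35% higher at an adjusted p under 0.05, and 7.84% and 7.42% at an unadjusted p under 0.05. Igfbp4 had the largest ratio in size, -0.20 (adjusted p = 0.465 by limma, standard error 0.11), and was below wild-type without overlap of the pools. The other ratios were 0.02 for Igf1, -0.13 for Igf1r, 0.04 for Igf2bp1, 0.06 for Igfbp2 and 0.04 for Igfbp3. Igfbp5 is not in this average, because its U74Av2 probe set is not given to it alone.

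The targeted gene was lower in the null pools on both platforms. Foxa2 gave log2 signals of 6.39 and 6.55 in the Foxa2 null pools, against 7.37 and 8.08 in the wild-type pools, on U74Av2, and 8.96 and 9.06 in the Foxa2 null pools, against 9.62 and 10.17 in the wild-type pools, on MOE430v2. In the average of both arrays Foxa2 fell by 1.07 (adjusted p = 0.031 by limma), and on single platforms the adjusted p was 0.13 and 0.141. Whether either probe set lies in the deleted part is not known here. Epiblast markers were present in all pools, with a MOE430v2 summed signal of 22110 and 28843 in the Foxa2 null pools and 19804 and 26008 in the wild-type pools. In a bulk extract fewer cells of a type and less RNA per cell cannot be told apart. Of 7 listed node and notochord markers, 5 were matched by name on either platform. Noto and T were not, though the study lists T as reduced on both arrays. All 5 lay below wild-type, with sums of 754 and 865 in the Foxa2 null pools, against 2456 and 2508 in the wild-type pools, on MOE430v2. Heart markers lay below wild-type for 3 of 4 genes and definitive endoderm markers for 5 of 6 on that array. Their summed signals were 1229 and 1134 in the Foxa2 null pools, against 2429 and 1802 in the wild-type pools, for heart, and 2572 and 3650 in the Foxa2 null pools, against 4935 and 6840 in the wild-type pools, for definitive endoderm. Visceral endoderm markers lay below wild-type for 0 of 11 genes on MOE430v2 (median ratio 0.38), with sums of 83045 and 67602 in the Foxa2 null pools and 58495 and 66608 in the wild-type pools. On U74Av2 2 of 10 lay below wild-type (median ratio 0.39). The sums there were 8920 and 5955 in the Foxa2 null pools and 5824 and 6038 in the wild-type pools, which overlapped. No marker was at 0.

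On MOE430v2 some marker lists ordered the 4 pools as 1452114_s_at of Igfbp5 did. Foxa2 null pool 2 was lowest, then Foxa2 null pool 1, wild-type pool 2 and wild-type pool 1. With 4 pools few orders are possible, and the share of all probe sets with this one was not counted. The summed heart markers had this order. So had those of parietal endoderm, which lay below wild-type for 4 of 4 genes with sums of 1991 and 1657 in the Foxa2 null pools, against 2615 and 2185 in the wild-type pools. Endothelial markers on that array, with sums of 1412 and 989 in the Foxa2 null pools and 1561 and 718 in the wild-type pools, shared only the order of pool 1 above pool 2 within each genotype. Single genes of the heart and parietal endoderm lists could differ from the sum on that array. Myl7 and Plat did, both with Foxa2 null pool 1 below Foxa2 null pool 2. On U74Av2, with the same extracts, neither the heart nor the parietal endoderm list kept the order. There heart sums were 254.9 and 301 in the Foxa2 null pools, against 633.4 and 569.5 in the wild-type pools. Parietal endoderm sums were 425.5 and 363.7 in the Foxa2 null pools and 518.3 and 363.4 in the wild-type pools, with wild-type pool 2 lowest. The reverse of the Igfbp5 order was seen in the epiblast markers Tdgf1 (ratio 2.21), Utf1 (1.06) and Fgf5 (0.67), and in Eomes (1.34), a marker of the primitive streak, on MOE430v2. None of these 4 passed after adjustment. The other markers of the epiblast and streak lists did not have it. Otx2 (-0.35), Tbx6 (-0.70) and Wnt3a (-0.48) had ratios below 0, and Pou5f1 (0.04) and Dnmt3b (0.05) had overlapping groups. On U74Av2 Tdgf1, Utf1 and Eomes kept the reverse order. Fgf5 did not, with Foxa2 null pool 1 at 4.94 and wild-type pool 2 at 5.00. The epiblast list as a whole had 1 of 6 genes below wild-type, and the streak list 3 of 5, with streak sums of 3067 and 5328 in the Foxa2 null pools and 3526 and 4325 in the wild-type pools. The part of these cell types and stages in the Igfbp4 and Igfbp5 values was not tested.

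Other genes of Igf signalling were taken from a list of 43, of which 36 had a tested probe set on MOE430v2 and 22 on U74Av2. With 1 probe set per gene, the brightest, 0 passed on either platform. Of all 14180 genes on MOE430v2, 40 passed as lower and 25 as higher, and of all 6410 on U74Av2, 11 and 3 did. At an unadjusted p under 0.05 the list had 6 lower and 4 higher on MOE430v2, beside 7% and 6.27% of all genes. On U74Av2 it had 0 lower and 1 higher, beside 4.98% and 5.13% of all. The median ratio was -0.06 on MOE430v2 and -0.01 on U74Av2, and for all genes it was -0.02 and -0.01. In the average of both arrays 1 of 22 passed and was higher, where of all 5933 genes 1.06% were lower and 1.35% higher.

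That gene was Eif4ebp1, a repressor of translation that is inactivated when mTOR signals. Its U74Av2 probe set 100636_at had 8.94 and 8.83 in the Foxa2 null pools, against 8.26 and 8.23 in the wild-type pools, a ratio of 0.65 (adjusted p = 0.165 by limma). On MOE430v2, 1434976_x_at had 12.76 and 13.03 in the Foxa2 null pools, against 12.45 and 12.53 in the wild-type pools, a ratio of 0.41, and 1417562_at had a ratio of 0.53. These 3 were higher in the null without overlap, whereas the fourth, 1417563_at, had 8.06 and 7.01 in the Foxa2 null pools and 7.25 and 7.29 in the wild-type pools, a ratio of 0.27 with overlapping groups. In the average of both arrays Eif4ebp1 rose by 0.53 (adjusted p = 0.0329 by limma, standard error 0.10). That call was lost without either wild-type pool (adjusted p = 0.0853 without pool 1 and 0.0557 without pool 2) and with median centring (0.0653), with the mean over all probe sets of a gene (0.0644) and without the intensity trend (0.208), all by limma.

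Of the proteins that act on the binding proteins, Htra1, a secreted serine protease that can cleave several of them, had the lowest median over the probe sets of both arrays. At 1416749_at it had 8.72 and 8.45 in the Foxa2 null pools, against 9.07 and 9.58 in the wild-type pools, a ratio of -0.74 (adjusted p = 0.251 by limma), and on U74Av2 96920_at had 5.86 and 6.04 in the Foxa2 null pools, against 6.55 and 6.24 in the wild-type pools, a ratio of -0.45. Null pools lay below wild-type pools at all 3 of its probe sets. In the average of both arrays the ratio was -0.59 (adjusted p = 0.125 by limma). Stc1, a stanniocalcin, had the highest median of that role, 0.53.

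Igfbpl1, a binding-protein-like gene, had the lowest median of the remaining binding proteins, at -1.42. Its MOE430v2 probe set 1423377_at had 5.02 and 4.65 in the Foxa2 null pools, against 7.94 and 7.70 in the wild-type pools, without overlap. Both null values lay under the lowest mean that passed the filter on low signals (5.77), so this probe set was tested only through its wild-type pools and the size of its difference is uncertain. At 1450960_at the ratio was -1.42 (adjusted p = 0.261 by limma). On U74Av2, 92349_at had overlapping groups and a ratio of -0.02, and 162354_f_at, left out for low signal, had 2.83 and 3.20 in the Foxa2 null pools, against 4.23 and 5.24 in the wild-type pools. Igfbp7, which binds Igf weakly, had the highest median, 0.52, but at 2 of its 3 tested probe sets the wild-type mean lay under the same limit.

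Among the adaptors Grb14, which binds the insulin receptor and inhibits it, had 6.75 and 5.96 in the Foxa2 null pools, against 8.0 and 8.33 in the wild-type pools, at 1417673_at. Its ratio of -1.81 (adjusted p = 0.104 by limma, standard error 0.40) was the lowest median of its role, but rested on this 1 tested probe set. The other Grb14 probe set, 1457526_at, left out for low signal, had a ratio of 0.86 with overlapping groups. Shc1, an adaptor of the Ras pathway, had the highest median, 0.33. Its ratio was 0.28 at 1422853_at and 0.38 at 1422854_at on MOE430v2. On U74Av2 it was 0.15 at 104350_at, with overlapping groups. It was 1.22 at 93713_at, a dimmer probe set whose wild-type pools lay apart at 4.36 and 5.77. In the kinase cascade Pik3cb was lowest with a median of -0.24 and Pdpk1 highest with 0.29. Pdpk1, the kinase that activates Akt, was higher without overlap at 1416501_at (ratio 0.59) and at 160578_at on U74Av2 (0.32), and lower without overlap at 102063_at on U74Av2 (-0.46). Pik3ca, a catalytic subunit of the lipid kinase upstream of Akt, was higher without overlap at 1453134_at (0.88) and at 104461_at on U74Av2 (1.11), but its other 6 tested probe sets lay between -0.32 and 0.54. None of these adaptor and kinase probe sets passed after adjustment.

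The ligand Igf2, the growth factor that Igf2bp proteins were named for, had 13.47 and 13.02 in the Foxa2 null pools and 13.11 and 12.74 in the wild-type pools at 1448152_at, a ratio of 0.32 with overlapping groups, and 0.16 at 98623_g_at on U74Av2. Its dimmer MOE430v2 probe set 1415931_at went the other way, with overlapping groups and a ratio of -0.96. It had 7.77 and 4.94 in the Foxa2 null pools and 7.53 and 7.10 in the wild-type pools. Of the receptors, Igf2r, which clears Igf2 from the cell surface, had a median of -0.12 and Insr, the insulin receptor, 0.25. Among the outputs Rheb, the small GTPase that activates mTOR, had the lowest median, -0.05, and Foxo4, a forkhead factor that Akt keeps out of the nucleus, the highest, 0.52. At 1456753_at Foxo4 had 11.40 and 11.02 in the Foxa2 null pools, against 10.45 and 10.25 in the wild-type pools, a ratio of 0.87 (adjusted p = 0.06 by limma). On U74Av2 it was 0.17 with overlapping groups, and in the average of both arrays the adjusted p was 0.0837 by limma.

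**Figure D4:**
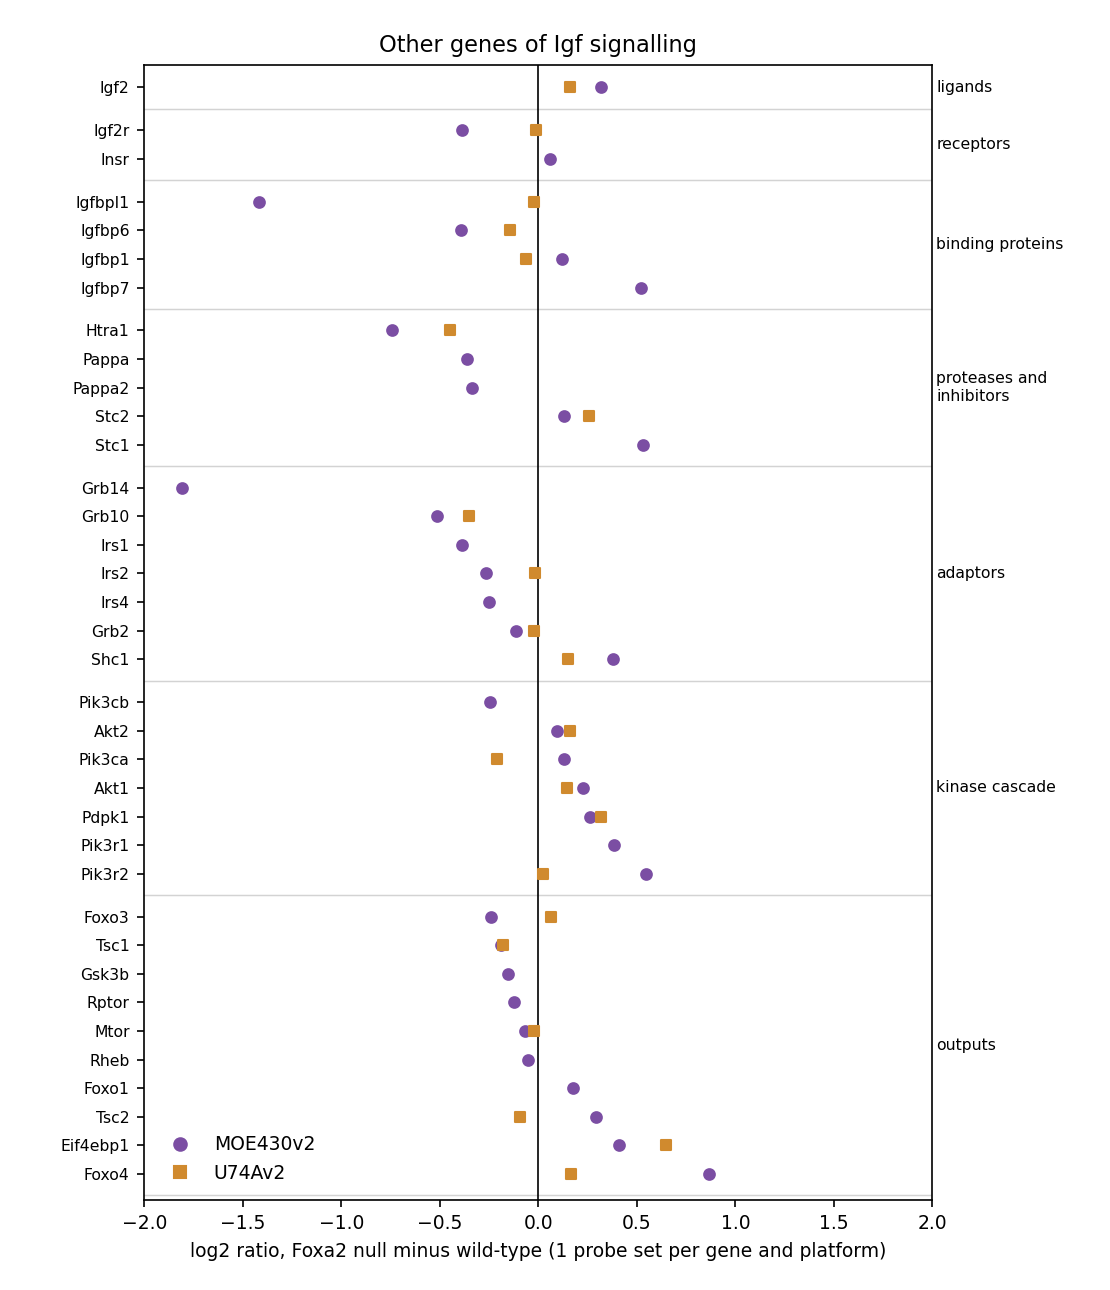
Log2 ratio, Foxa2 null over wild-type (horizontal axis) of the other genes of Igf signalling, with 1 probe set per gene and platform, circles for MOE430v2 and squares for U74Av2, grouped by role. Grb14 (-1.81) and Igfbpl1 (-1.42) lie farthest to the left and Foxo4 (0.87) farthest to the right, and Igfbpl1 and Foxo4 lie close to 0 on U74Av2.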

How the data were processed

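Pools of embryonic day 7.5 mouse embryos were hybridised by the authors to Affymetrix U74Av2 and MOE430v2 arrays. The deposited values are MAS5 signals, that is 1 intensity per probe set, scaled by the authors so that the trimmed mean of each array (2% left out at each end) was 150 on U74Av2 and 500 on MOE430v2. Their median was 48.1 to 52.8 and 155 to 165. The study's methods name another target for U74Av2. Genes were named from the platform annotation, by which 10833 of 12422 and 34945 of 45037 probe sets had 1 gene, 396 and 932 several and 1193 and 9160 none. After removal of control probe sets (66 and 64) signals were put on the log2 scale (4 zeros on U74Av2 were set to the lowest value above 0). MOE430v2 arrays were then normalised by cyclic loess (the study's methods name a loess smoother without saying how arrays were combined), and U74Av2 arrays were kept as scaled. The dimmest 30% of probe sets by mean log2 signal were dropped, leaving 8695 and 31526.

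Foxa2 null was compared with wild-type by limma 3.58.1 in R 4.3.3 (a linear fit with moderated two-sided tests and a prior that follows the signal), and p-values were adjusted by Benjamini-Hochberg over every tested probe set, with 0.05 as the threshold. The average of both arrays used the brightest probe set of a gene on each, centred within its platform. With 2 pools per genotype an exact permutation test cannot give a p below 0.333. The pools were separate sets of embryos, and p-values measure only the spread between them. The number of pools limits the precision, and a second array of the same extract adds no pool. The fit was tested on simulated data, in which it called few of the smaller changes. Members and lists were chosen with earlier results of these data known. Every tested probe set given to a member alone was reported, by value or in a range, and those not tested were named. Other pathway genes were named if they passed, if both platforms showed no overlap in 1 direction with a ratio of at least 0.5 in size on 1 of them, or if they had the highest or lowest median of their role. Sequences come from RefSeq tables of GRCm38.p6.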

Additional observations from a re-analysis of the deposited data

How the results depend on the processing

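With 2 pools per genotype, p-values rest on a spread borrowed across probe sets, and without the intensity trend 0 probe sets of either array passed. The pool numbers are shared by the genotypes, but same-numbered pools deviated together only weakly (correlation 0.111 on U74Av2 and 0.0851 on MOE430v2), so they were not taken as pairs. With the number as a replicate block, 3 MOE430v2 probe sets of the axis passed as lower (Igfbp5 1452114_s_at, adjusted p = 1.11e-06, Igf2bp1 1449210_at, 0.000563, and Igfbp4 1421991_a_at, 0.0324, limma) and 1 as higher (Igf2bp1 1418761_at, 0.0163), as did 100566_at on U74Av2 (0.00269). Over all MOE430v2 probe sets the block called 799 lower and 844 higher. The block takes out a difference between pool 1 and pool 2 that both genotypes share. At 1452114_s_at that difference was 1.07 in wild-type and 0.92 in the Foxa2 null pools. This fit also has less left than the main one from which to measure the spread of the pools. When each pool was left out in turn, the count of lower MOE430v2 probe sets of the axis ranged from 0 to 1. Over all MOE430v2 probe sets 77 lower and 60 higher calls became 192 and 84 without null pool 1, 152 and 84 without null pool 2, 6 and 11 without wild-type pool 1, 16 and 18 with wild-type pool 2 left out, 147 and 178 with the lowest 50% of probe sets left out, and 27 and 16 with no filter.

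The sign of some ratios turned. Median centring gave 0.0279 for Igfbp2 98627_at and, for Igf1r, 0.00581 at 1426565_at and 0.0182 at 1446303_at. Quantile normalization gave -0.00882 for Igf1r 102224_at and 0.00223 at 1446303_at, and signals as scaled gave 0.00737 at 1446303_at. The mean over all probe sets gave -0.14 for Igf1 and -0.0252 for Igfbp3 in the average of both arrays. Leaving out single pools gave, on U74Av2, -0.0166 to 0.85 for Igfbp3 95083_at, -0.17 to 0.36 for Igfbp4 94222_at, -0.32 to 0.0245 for Igfbp4 101571_g_at, -0.11 to 0.0843 for Igfbp2 98627_at, -0.21 to 0.26 for Igf1r 102224_at and -0.0546 to 0.21 for Igf2bp1 102627_at. On MOE430v2 it gave, for Igf1r, -0.0595 to 0.0349 at 1426565_at, -0.22 to 0.10 at 1428967_at, -0.27 to 0.27 at 1446303_at and -0.16 to 0.53 at 1452108_at. It gave -0.0694 to 0.36 at 1453957_a_at and -0.24 to 0.0647 at 1422611_s_at of Igf2bp3, -0.42 to 0.0568 for Igfbp4 1421992_a_at, -0.20 to 0.14 for Igfbp5 1422313_a_at, -0.99 to 0.32 for Igf1 1452014_a_at and -0.0900 to 0.0842 for Igf2bp1 1455223_at. In the average of both arrays it gave -0.33 to 0.0720 for Igf1r, -0.0537 to 0.18 for Igfbp2, -0.21 to 0.28 for Igfbp3, -0.0757 to 0.11 for Igf1 and -0.0627 to 0.14 for Igf2bp1. The cause was not tested. The directions at 1452114_s_at, 100566_at, 1418761_at, 1449210_at and 1421991_a_at stayed the same under every setting tried.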
